A study of Homo sapiens with 4 samples.

Results

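Chromosome 19 carries 246 protein-coding genes whose symbols consist of ZNF and a number, hereafter the ZNF genes. They were taken from GENCODE release 44 on GRCh37 (hg19) by symbol and position alone, with no use of the measurements, and make up 246 of the 1480 protein-coding genes of this chromosome and of the 20098 on the 22 autosomes and X. The other 1231 protein-coding genes of chromosome 19 served as comparison. Another 3 ZNF genes with hyphenated read-through symbols (ZNF559-ZNF177, ZNF625-ZNF20 and ZNF816-ZNF321P) were placed in neither set. A promoter window ran from 1000 bp before the transcription start site (TSS) to 500 bp after it, and a promoter had a peak when at least 1 bp of a peak overlapped it.

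The assay was ATAC-seq. The transposase Tn5 inserts sequencing adapters preferentially into open DNA, and a locus with many insertions is called as a peak. The 4 libraries were 2 replicates of parental MCF10A, a human breast epithelial line that grows indefinitely in culture without being malignant, and 2 replicates of G12V cells, the same line after lentiviral transduction with H-RAS Gv12, the G12V form of the HRas oncogene. The G12V cells received a GFP vector together with the oncogene and were selected with hygromycin. They arrested before they resumed growth, so the G12V libraries describe a selected population, and neither that selection nor the viral vectors can be told apart from the oncogene in this design. The methods call the 2 replicates of each condition biological.

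Most ZNF genes encode C2H2 zinc finger proteins, in which tandem fingers bind DNA, and many carry an amino-terminal KRAB box. The KRAB box recruits the corepressor TRIM28 (KAP1), which brings in the histone methyltransferase SETDB1 and HP1 proteins, and many of these proteins silence transposable elements. The genes arose by tandem duplication and lie in clusters along chromosome 19, where the gene bodies are known to carry repressive chromatin while the promoters can remain open.

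The promoter sequences of 9 ZNF genes with contrasting peak patterns are shown first. Each is the GRCh37 sequence of up to 250 bases that ends at the base before the TSS, read 5′ to 3′ on the strand of the gene and cut short where an annotated exon of a neighbouring gene begins. Capitals mark matches, on either strand, to the short promoter motifs listed with the base composition of the windows, and overlapping matches form 1 run. The first 3 promoters had a peak in all 4 libraries: ZNF548 (chr19:57900968-57901217, plus strand), ZNF91 (chr19:23578274-23578523, minus strand) and ZNF93 (chr19:20011472-20011721, plus strand). ZNF91 and ZNF93 are shown together because their products are known to repress SVA and LINE-1 retrotransposons, and the 2 stretches share an identical run of 24 bases.
ZNF548: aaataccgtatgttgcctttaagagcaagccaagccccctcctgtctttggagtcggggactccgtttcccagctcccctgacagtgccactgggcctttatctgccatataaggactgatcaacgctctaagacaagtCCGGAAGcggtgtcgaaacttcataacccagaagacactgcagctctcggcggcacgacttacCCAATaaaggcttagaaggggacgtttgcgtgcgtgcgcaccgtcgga
ZNF91: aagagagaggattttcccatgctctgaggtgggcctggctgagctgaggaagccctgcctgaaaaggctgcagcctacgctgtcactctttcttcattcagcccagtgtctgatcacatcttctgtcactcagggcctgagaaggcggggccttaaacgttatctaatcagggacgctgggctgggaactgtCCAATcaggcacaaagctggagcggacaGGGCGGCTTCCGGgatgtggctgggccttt
ZNF93: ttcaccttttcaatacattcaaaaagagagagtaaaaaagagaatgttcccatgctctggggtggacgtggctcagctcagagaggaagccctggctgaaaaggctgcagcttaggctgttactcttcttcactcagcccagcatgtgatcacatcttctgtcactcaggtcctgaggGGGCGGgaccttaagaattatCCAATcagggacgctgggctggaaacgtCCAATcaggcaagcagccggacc
ZNF627 (chr19:11670046-11670188, plus strand) and ZNF836 (chr19:52674897-52675146, minus strand) had peaks in the G12V libraries alone, in both of them.
ZNF627: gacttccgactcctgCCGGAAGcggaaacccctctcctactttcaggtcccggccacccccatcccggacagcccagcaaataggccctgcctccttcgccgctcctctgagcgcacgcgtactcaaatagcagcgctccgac
ZNF836: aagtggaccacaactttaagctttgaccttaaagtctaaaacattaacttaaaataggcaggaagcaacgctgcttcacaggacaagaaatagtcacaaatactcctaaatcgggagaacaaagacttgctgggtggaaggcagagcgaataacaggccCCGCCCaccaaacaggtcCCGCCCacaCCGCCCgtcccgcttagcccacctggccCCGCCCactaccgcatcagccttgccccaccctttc
ZNF285 (chr19:44905775-44906024, minus strand) and ZNF525 (chr19:53868696-53868945, plus strand) had peaks in the MCF10A libraries alone, in both of them.
ZNF285: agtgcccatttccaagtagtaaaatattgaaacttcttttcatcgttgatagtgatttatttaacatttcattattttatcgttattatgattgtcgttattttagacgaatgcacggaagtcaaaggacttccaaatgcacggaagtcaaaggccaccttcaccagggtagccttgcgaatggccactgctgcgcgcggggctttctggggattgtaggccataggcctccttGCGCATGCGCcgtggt
ZNF525: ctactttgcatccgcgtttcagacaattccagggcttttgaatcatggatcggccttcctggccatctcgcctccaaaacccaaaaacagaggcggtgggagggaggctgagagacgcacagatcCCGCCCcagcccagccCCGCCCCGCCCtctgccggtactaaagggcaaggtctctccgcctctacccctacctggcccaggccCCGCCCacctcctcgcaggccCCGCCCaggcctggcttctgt
ZNF677 (chr19:53758152-53758401, minus strand) and ZNF582 (chr19:56904908-56905024, minus strand) had no peak in any library, although their windows had the highest CpG ratios among such members.
ZNF677: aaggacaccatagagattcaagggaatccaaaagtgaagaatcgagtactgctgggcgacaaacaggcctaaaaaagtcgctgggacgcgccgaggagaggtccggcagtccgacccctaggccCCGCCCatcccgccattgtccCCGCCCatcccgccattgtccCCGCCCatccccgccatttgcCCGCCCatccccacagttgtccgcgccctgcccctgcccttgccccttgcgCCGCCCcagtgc
ZNF582: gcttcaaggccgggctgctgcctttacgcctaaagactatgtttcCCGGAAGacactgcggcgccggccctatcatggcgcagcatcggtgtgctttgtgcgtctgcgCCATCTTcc

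The lists differed in length, with 12902 peaks in MCF10A replicate 1, 34484 in MCF10A replicate 2, 14057 in G12V replicate 1 and 46698 in G12V replicate 2. Replicate 2 of each cell type thus had the longer list, the number of reads behind a list is unknown, and a missing peak means only that the locus did not pass the caller's threshold in that library. Chromosome 19 held between 1.71% and 2.63% of the peaks. Of 10 mammary epithelial markers, 5 had a promoter peak in at least 1 library, among them LAMB3 (laminin-332 subunit) in 3. KRT5, KRT14, KRT18, CDH1 and TP63 had none in any library. Over all protein-coding promoters, 49.7% had a peak in at least 1 library and 50.3% had none. The marker counts therefore cannot be read as evidence of cell identity. None of 4 leukocyte and 3 endothelial markers had a promoter peak, and of 4 fibroblast markers COL1A1 and PDGFRA had one, in MCF10A replicate 2. COL1A1 also had a peak at another annotated start in both G12V libraries.

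ZNF promoters were more often accessible than the other promoters of the chromosome in every library. In MCF10A replicate 1, 86 of 246 ZNF promoters had a peak (35.0%, 95% Wilson interval 29.3 to 41.1) against 12.4% of the other chromosome 19 promoters. The corresponding shares were 55.7% (49.4 to 61.8) against 30.6% in MCF10A replicate 2, 30.9% (25.5 to 36.9) against 11.5% in G12V replicate 1, and 55.3% (49.0 to 61.4) against 27.1% in G12V replicate 2. The difference was 22.5, 25.1, 19.4 and 28.2 percentage points in these libraries, with a mean of 23.8 ± 3.74 (SD, n = 4). The ZNF share was the higher one in 4 of 4 libraries (exact two-sided sign-flip permutation test over libraries, p = 0.125, the smallest p that 4 libraries allow, so that 0.05 could not be reached). The intervals cover counting error only.

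**Figure D1:**
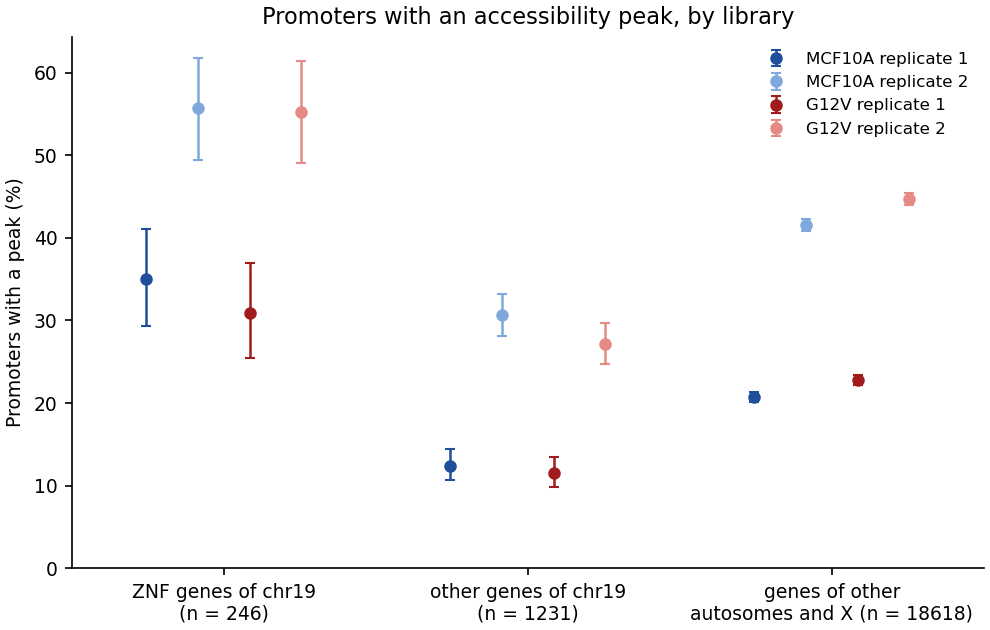
Percentage of promoters with a peak (vertical axis) for 246 ZNF genes, 1231 other genes of chromosome 19 and 18618 genes of the other autosomes and X, with 1 point per library and bars for 95% Wilson intervals. In each library the ZNF point lies above both others, at 30.9% to 55.7%, and replicate 2 lies above replicate 1.

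The ZNF shares also exceeded those of promoters on the other autosomes and X, which were 20.7% and 41.6% in MCF10A replicates 1 and 2 and 22.8% and 44.7% in G12V replicates 1 and 2. The mean difference from these was 11.8 percentage points (exact two-sided sign-flip permutation test, p = 0.125). The other promoters of chromosome 19 were thus lower than those of other chromosomes in each library. ZNF promoters took 24.5%, 15.9%, 24.0% and 16.6% of all chromosome 19 peaks in MCF10A replicates 1 and 2 and G12V replicates 1 and 2. Neighbouring TSSs shared some peaks, so that the 86, 137, 76 and 136 ZNF promoters with a peak rested on 83, 132, 72 and 132 distinct peaks.

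Peaks at ZNF promoters ranked above those at other promoters of chromosome 19, but not above those at promoters of other chromosomes, and they were centred near the TSS. The MACS score was converted to a percentile within the list, because scores depend on depth. The median ZNF promoter peak stood at percentile 67.1 in MCF10A replicate 1, 82.9 in MCF10A replicate 2, 66.9 in G12V replicate 1 and 69.1 in G12V replicate 2. The corresponding medians for the other promoters of chromosome 19 were 44.8, 61.7, 43.4 and 56.2. The difference was 22.2, 21.2, 23.5 and 12.9 percentile points, with a mean of 19.9 ± 4.76 (SD, n = 4), and was positive in 4 of 4 libraries (exact two-sided sign-flip permutation test, p = 0.125). Against peaks at promoters of other autosomes and X the mean difference was -0.962 percentile points (p = 0.75, same exact permutation test), with medians there of 65.5, 75.9, 69.1 and 79.3.

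**Figure D2:**
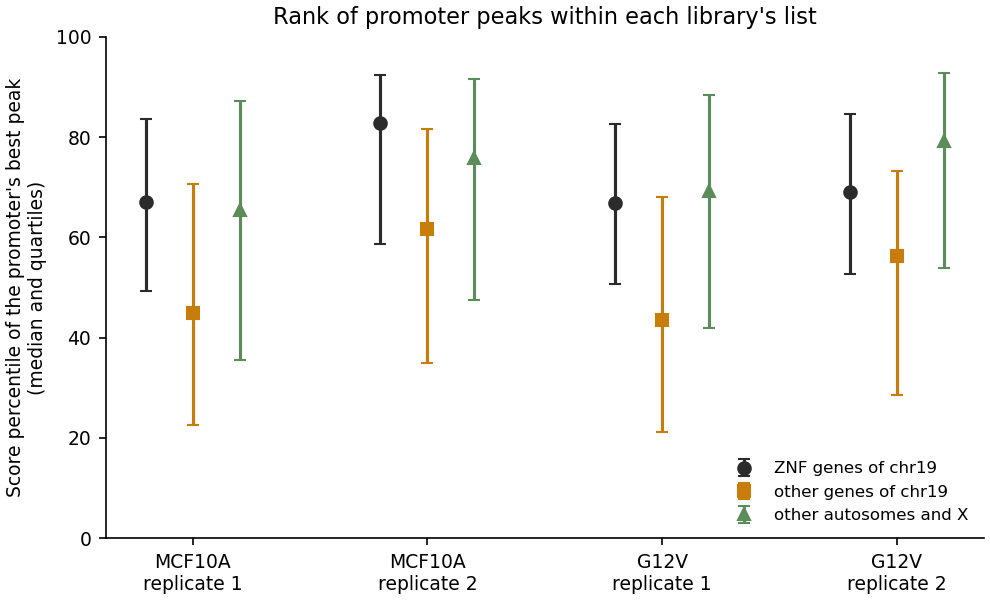
Score percentile within a library's list (vertical axis) of the best peak at each promoter, by library, with points for medians and bars for quartiles over promoters with a peak. The ZNF medians lie between 66.9 and 82.9, above those of other chromosome 19 genes in every library.

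The midpoint of a ZNF promoter peak lay at a median of -13, 25, 1 and 5 bp from the TSS in MCF10A replicates 1 and 2 and G12V replicates 1 and 2, where negative values are upstream. For the other promoters of chromosome 19 the medians were -41, -52, -113 and -58 bp, and for those of the other autosomes and X they were -18.5, 16, -32 and 7 bp, close to the ZNF values. ZNF promoter peaks had median widths of 403, 717, 401 and 617.5 bp, so the longer lists also held the wider peaks. In MCF10A replicate 2, 48 of the 137 ZNF promoters with a peak had one above percentile 90 of the list, against 13, 7 and 19 in MCF10A replicate 1, G12V replicate 1 and G12V replicate 2. As shares of promoters with a peak these were 35.0% in MCF10A replicate 2 and 15.1%, 9.21% and 14% in the other 3 libraries. The other autosomes and X had 28.7% in MCF10A replicate 2 and 21.1%, 21.9% and 31.3% in the same 3, so ZNF peaks were less often among the top ranks there in 3 of 4 libraries.

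Of the 246 ZNF promoters, 55 (22.4%) had a peak in all 4 libraries, 40 in 3, 33 in 2, 29 in 1 and 89 (36.2%) in none. Over all 20098 protein-coding promoters, 13.6% had a peak in all 4 libraries and 50.3% in none, and among the other promoters of chromosome 19 the shares were 6.01% and 62.3%. Where only some libraries had a peak, these were mostly the libraries with long lists. Of the ZNF promoters, 28 had a peak in replicate 2 of both cell types only, 25 in all libraries but G12V replicate 1 and 13 in all but MCF10A replicate 1. These were 11.4%, 10.2% and 5.29% of the ZNF promoters, against 10.9%, 4.92% and 6.82% of all promoters. By contrast, 2 lacked a peak in MCF10A replicate 2 alone and 0 lacked one in G12V replicate 2 alone.

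ZNF promoters found in a short list were nearly all found in the long list of the same cells. Of the 86 with a peak in MCF10A replicate 1, 82 (95.4%) had one in MCF10A replicate 2, and of the 76 in G12V replicate 1, 72 (94.7%) had one in G12V replicate 2. Over all protein-coding promoters these shares were 93.7% and 96.5%, and over the other promoters of chromosome 19 they were 83.7% and 90.9%. The long list of the other cell type held a peak at 83 of the 86 ZNF promoters (96.5%) and at 68 of the 76 (89.5%). Over all protein-coding promoters these overlaps with the other cell type were 94.3% and 93.6%. Between the long lists, 121 of the 137 ZNF promoters with a peak in MCF10A replicate 2 had one in G12V replicate 2 (88.3%), against 70.8% of the other chromosome 19 promoters and 88.0% of all promoters. Within each cell type and between the long lists, the ZNF value thus lay close to that over all promoters.

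The 10 strongest of the 55 promoters with a peak in all 4 libraries, by the lowest of their 4 percentiles, were ZNF558, ZNF571, ZNF548, ZNF749, ZNF136, ZNF91, ZNF93, ZNF383, ZNF585B and ZNF254. ZNF558, a KRAB zinc finger gene, had percentiles of 91.0 and 97.7 in MCF10A and 95.4 and 95.6 in G12V. The midpoints of its peaks lay at -472 and -418 bp from the TSS in MCF10A and at -606 and -416 bp in G12V, and the start of a neighbouring gene on the opposite strand lay within 1000 bp. ZNF571 had percentiles of 93.9 and 96.7 in MCF10A and 88.8 and 88.2 in G12V. ZNF548 had percentiles of 91.4 and 88.9 in MCF10A and 87.2 and 90.5 in G12V, with peaks centred 9 to 129 bp downstream of the TSS. High ranks in every list, including both short ones, follow from the rule that picked these promoters. ZNF383 and ZNF585B, on opposite strands with TSSs 227 bp apart, shared the same peak in every library (79.1 and 93.3 in MCF10A, 86.2 and 83.9 in G12V), so they are 1 accessible locus with 2 gene starts.

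Members with a described role were divided among the patterns. ZNF91, a repressor of SVA retrotransposons, had percentiles of 97.9 and 96.0 in MCF10A and 79.8 and 90.8 in G12V. ZNF93, a repressor of LINE-1 elements, had 91.6 and 87.2 in MCF10A and 87.4 and 79.5 in G12V. Both promoters were thus accessible in all 4 libraries, and each peak overlapped the sequence shown above. ZNF675, an inhibitor of TRAF6 signalling, had 56.7 and 88.0 in MCF10A and 82.4 in G12V replicate 2 only. ZNF350 (ZBRK1), a corepressor partner of BRCA1, had 51.1 and 28.7 in MCF10A and 42.7 in G12V replicate 2 only. ZNF274, which binds the 3′ ends of zinc finger genes and recruits SETDB1, had a peak only in the long lists, at percentiles 67.6 and 71.8 in replicate 2 of MCF10A and of G12V. ZNF224, a repressor of aldolase A, also had peaks only there, at 76.9 and 4.53.

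Among the members in a single list, the highest percentiles were those of ZNF440 (86.6, MCF10A replicate 2), ZNF615 (63.0, MCF10A replicate 1) and ZNF565 (58.5, G12V replicate 1).

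The 6 other members of the 12 with a described role had no promoter peak in any library. Promoters without a peak made up 36.2% of ZNF promoters and 50.3% of all promoters. The count therefore cannot be read as particular to these 6. Of the 6, ZNF331, ZNF382, ZNF582 and ZNF677 are known as genes silenced by promoter methylation in carcinomas. ZNF536 is a repressor expressed in neurons, and ZNF541 a gene of male meiosis. ZNF331 had peaks at another annotated start in 3 libraries (all but G12V replicate 1), whereas ZNF382, ZNF582, ZNF677, ZNF536 and ZNF541 had none at any annotated start. The 5 promoters without a peak that had the highest ratio of observed to expected CpG in the window were ZNF677 (0.883), ZNF582 (0.819), ZNF471 (0.784), ZNF229 (0.772) and ZNF347 (0.771).

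The gene start was not the accessible start of every member. Of the 246 ZNF genes, 135 had an annotated start of a protein-coding transcript more than 500 bp from the gene start. Of the 89 with no peak at the gene start, 23 had one at another start in at least 1 library, and 6 of them (ZNF420, ZNF875, ZNF540, ZNF574, ZNF225 and ZNF444) had one there in all 4. The other 66 had no peak at any annotated start. Annotated starts are here those of protein-coding transcripts, which do not always include the gene start. ZNF227, for example, had a peak at its gene start in G12V replicate 2 but none there at a start of this kind. Counting any annotated start, 40.7% and 65.9% of ZNF genes had a peak in MCF10A replicates 1 and 2 and 34.2% and 64.6% in G12V replicates 1 and 2. The other chromosome 19 genes had 14.5%, 34.6%, 13.0% and 30.2% in the same order.

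The comparison of G12V with MCF10A asked whether ZNF promoters opened or closed on transformation. A promoter counted as gained when both lists of G12V and no list of MCF10A held a peak there, and as lost in the opposite case. Of 246 ZNF promoters, 2 were gained (0.813%, against 0.856% of all promoters) and 2 were lost (0.813%, against 0.517% of all promoters). Of the other chromosome 19 promoters, 5 were gained (0.406%) and 14 were lost (1.14%), so the ZNF share lost lay below that of this comparison set.

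The gained promoters were ZNF627 and ZNF836, both KRAB zinc finger genes. ZNF627 had a peak at chr19:11670007-11670375 in G12V replicate 1 (percentile 55.6) and at chr19:11669693-11670589 in G12V replicate 2 (59.3), over the TSS and the opposite start of ELOF1, a transcription elongation factor. ZNF836 had a peak at chr19:52674882-52675100 in G12V replicate 1 (70.4) and at chr19:52674726-52675174 in G12V replicate 2 (37.9). The lost promoters were ZNF285 and ZNF525. ZNF285 had a peak at chr19:44905678-44906012 in MCF10A replicate 1 (49.4) and at chr19:44905442-44906224 in MCF10A replicate 2 (63.0). ZNF525 had the highest ranks of the 4, with a peak at chr19:53868651-53869341 in MCF10A replicate 1 (91.0) and at chr19:53868806-53869112 in MCF10A replicate 2 (82.4). Among promoters with no other protein-coding TSS within 1000 bp, 0 ZNF promoters were gained and ZNF525 alone was lost. Shares of all promoters under that restriction are not given, so these counts cannot be read as particular to ZNF promoters.

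The share of ZNF promoters with a peak was 45.3 ± 14.7% in MCF10A and 43.1 ± 17.3% in G12V (SD, n = 2 each), a difference of -2.24 percentage points. This was less than the replicates differed among themselves (p = 0.667 by an exact permutation of the 4 labels, two-sided, which cannot go below 0.333). After subtraction of the share of other chromosome 19 promoters in the same library, the values were 23.8 ± 1.79 in MCF10A and 23.8 ± 6.22 in G12V, a difference of -0.0424 points (p = 1, same exact permutation test). Net of the share of promoters on the other autosomes and X instead, the difference was -4.82 points (p = 0.333, same exact permutation test, the smallest it allows). The signs of the differences of -2.24 and -0.0424 points turned when either of 2 lists was left out. Without MCF10A replicate 2 the differences were 8.13 and 1.23 points, and without G12V replicate 1 they were 9.96 and 4.35 points. The counts of gained and lost ZNF promoters also rested on single libraries, with 4 and 16 without MCF10A replicate 1, 15 and 3 without MCF10A replicate 2, 12 and 2 without G12V replicate 1, and 6 and 27 without G12V replicate 2. With a library left out fewer conditions have to be met, and shares of all promoters under that rule are not given. The counts therefore cannot be read as particular to ZNF promoters.

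When every list was reduced to its 12888 best peaks, the ZNF shares were 35.0% and 40.2% in MCF10A and 29.3% and 24.8% in G12V, and the cell types did not overlap. The difference was then -10.6 points (exact two-sided permutation test, p = 0.333, the smallest it allows), and -6.06 points after subtraction of the other chromosome 19 share (p = 0.333, same exact permutation test). The other promoters of chromosome 19 were lower in G12V too, with 12.4% and 14.1% in MCF10A and 10.6% and 6.91% in G12V, and so were the peaks on the whole chromosome, with 339 and 326 in MCF10A and 276 and 178 in G12V. Promoters over the whole genome did not show this order (20.4% and 25.9% in MCF10A, 21.4% and 24.9% in G12V). With these lists 3 ZNF promoters were gained, ZNF585A, ZNF805 and ZNF416 (1.22%, against 1.12% of all promoters and 0.162% of other chromosome 19 promoters). Neither ZNF627 nor ZNF836, gained with the whole lists, was gained with these. Lost were 11 (4.47%, against 1.3% of all promoters and 2.11% of other chromosome 19 promoters). The 11 were ZNF414, ZNF791, ZNF333, ZNF507, ZNF599, ZNF285, ZNF473, ZNF649, ZNF888, ZNF525 and ZNF550, of which ZNF285 and ZNF525 were also lost with the whole lists.

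**Figure D3:**
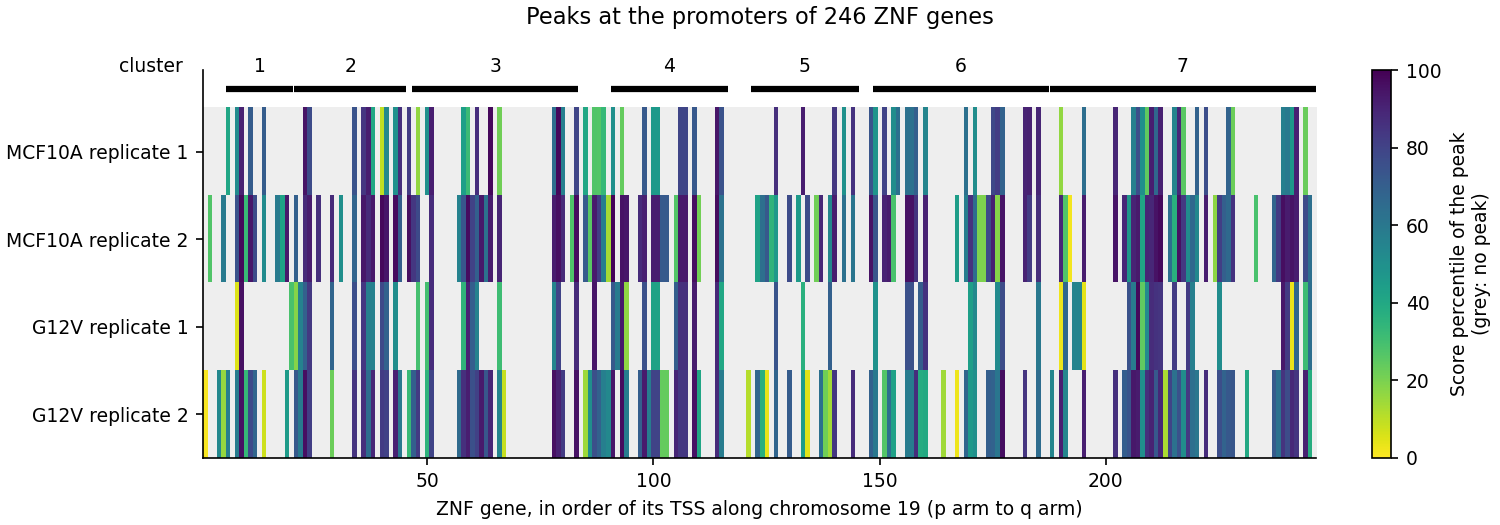
Peaks at the 246 ZNF promoters (horizontal axis, in order of TSS along chromosome 19) in the 4 libraries (rows), coloured by the score percentile of the peak and grey where there is none. Black bars mark the 7 clusters, and a grey block of 10 neighbouring members without a peak in any library stands in cluster 3.

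Along the chromosome, accessible and inaccessible ZNF promoters lay side by side in every cluster, with a few uninterrupted blocks. The longest block without a peak in any library held 10 neighbouring members in cluster 3, from ZNF208 (TSS at 22193751) to ZNF730 (TSS at 23258012). It comprised ZNF208, ZNF257, ZNF676, ZNF729, ZNF98, ZNF492, ZNF99, ZNF723, ZNF728 and ZNF730. The longest block with a peak in all 4 libraries held 7 neighbouring members in cluster 7, ZNF460, ZNF543, ZNF304, ZNF547, ZNF548, ZNF17 and ZNF749, between 57791419 and 57946693. These blocks were picked for their length after the values were seen.

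Clusters were runs of at least 10 members with neighbouring TSSs at most 1 Mb apart. This gave 7 clusters with 225 members, and 21 members lay outside them. Cluster 4 (ZNF146 to ZNF573, 26 members) had a peak at 38.5% and 61.5% of its promoters in MCF10A replicates 1 and 2 and at 50% and 65.4% in G12V replicates 1 and 2, and 10 of its members had one in all 4 libraries. The 6 other genes inside cluster 4 had a higher share, 66.7% in each library, so the contrast with other genes did not hold there. Cluster 7 (ZNF628 to ZNF446, 59 members), near the end of the long arm, had 37.3%, 61.0%, 39.0% and 61.0% in the same order, with 15 members in all 4. Cluster 5 (ZNF575 to ZNF296, 24 members) was low in the short lists only, with 20.8% and 12.5% in replicate 1 of MCF10A and of G12V but 58.3% and 50% in replicate 2, and ZNF45 was its only member with a peak in all 4. Of the 21 members outside clusters, 1 (ZNF181) had a peak in G12V replicate 1 (4.76%, Wilson interval 0.846 to 22.7), against 12 in G12V replicate 2.

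**Figure D4:**
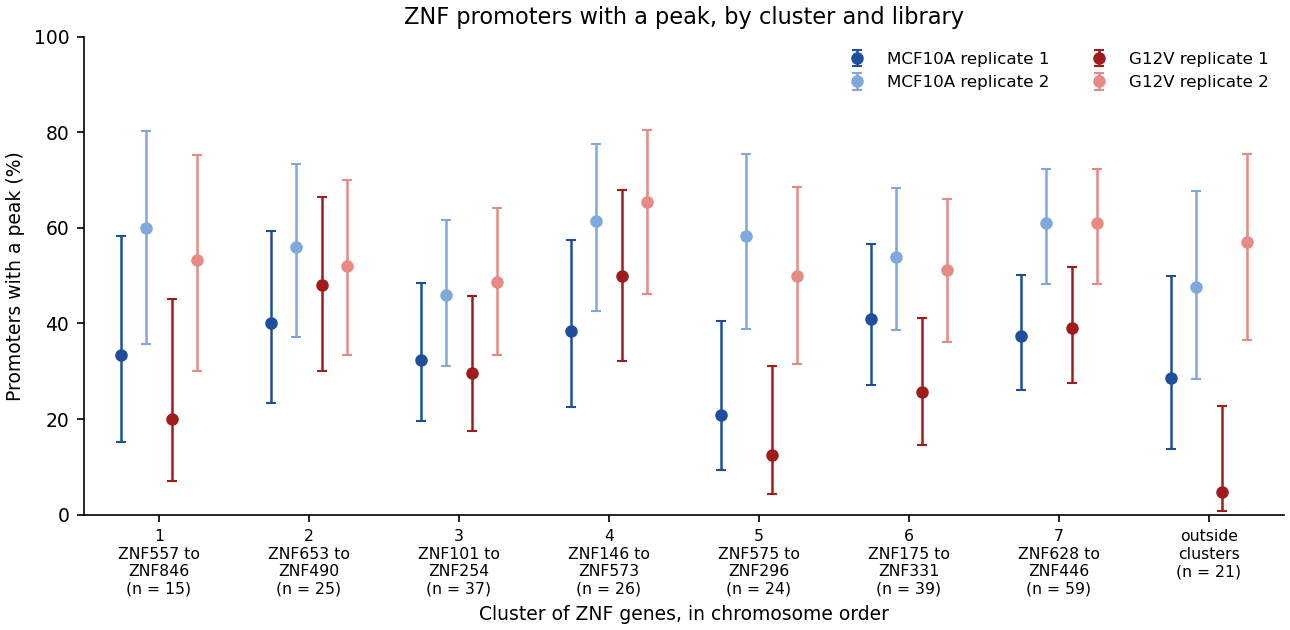
Percentage of ZNF promoters with a peak (vertical axis) in the 7 clusters, in chromosome order, and among the 21 members outside them, with 1 point per library and bars for 95% Wilson intervals. Most intervals overlap between clusters, and clusters 1, 5 and the members outside clusters show the widest gap between replicate 1 and replicate 2 of G12V.

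Cluster 3 (ZNF101 to ZNF254, 37 members, TSSs from 19779605 to 24216207 on the short arm) had 18 members without a peak, and its accessible members lay in stretches. Between 21 and 22 Mb, 5 and 8 of 9 promoters had a peak in MCF10A replicates 1 and 2 and 5 and 8 in G12V replicates 1 and 2. Between 22 and 23 Mb, 0 of 8 promoters had a peak in MCF10A replicates 1 and 2 and G12V replicate 1, and 1 (ZNF43, percentile 8.72) had one in G12V replicate 2. A median of 93.6% of the 51-base words in those 8 windows occurred once in the genome, against 92.6% between 21 and 22 Mb, and the lowest values between 22 and 23 Mb were 78.4% at ZNF208 and 84.4% at ZNF676. The part of unique placement in the missing peaks was not tested. Between 20 and 21 Mb, ZNF93 was the only 1 of 7 members with a peak in all 4 libraries.

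On the short arm (83 members) 33.7% and 51.8% of ZNF promoters had a peak in MCF10A replicates 1 and 2 and 31.3% and 51.8% in G12V replicates 1 and 2. On the long arm (163 members) the shares were 35.6%, 57.7%, 30.7% and 57.1%. The long arm minus the short arm was 1.85, 5.86, -0.651 and 5.25 percentage points, with a mean of 3.08 ± 3.05 (SD, n = 4; exact two-sided sign-flip permutation test, p = 0.25). Counting any annotated start, the mean was 9.27 points (p = 0.125 by the same exact test, the smallest it allows), and with equal lists it was -0.776 points.

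The share of a cluster's peaks that lay at promoters ranged from 43.3% (cluster 1, G12V replicate 2) to 91.7% (cluster 2, MCF10A replicate 1). In cluster 2 (ZNF653 to ZNF490), 91.7%, 85.0%, 80.0% and 83.3% of the peaks in MCF10A replicates 1 and 2 and G12V replicates 1 and 2 overlapped a promoter window. Within the bodies of ZNF genes, outside promoter windows, there were 3.0 and 7.08 peaks per Mb in MCF10A replicates 1 and 2 and 2.86 and 7.49 in G12V replicates 1 and 2. In the bodies of other chromosome 19 genes there were 3.49, 9.86, 2.53 and 9.22.

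ZNF promoters had a peak more often than other chromosome 19 promoters whether or not the window was CpG-rich, here at least 50% GC with a ratio of observed to expected CpG of at least 0.6. Of the 246 ZNF windows 122 were CpG-rich, and 41.8% and 68.9% of them had a peak in MCF10A replicates 1 and 2 and 36.9% and 67.2% in G12V replicates 1 and 2. The 564 CpG-rich windows of other chromosome 19 genes had 20.7%, 52.8%, 20.9% and 47.5%. Among the remaining windows the contrast was wider in proportion, with 28.2%, 42.7%, 25% and 43.5% of 124 ZNF windows against 5.40%, 11.8%, 3.6% and 9.90% of 667 others. Median CpG ratios were 0.563 for the 89 ZNF promoters without a peak and 0.647 for the 55 with a peak in all 4 libraries, with ranges of 0.096 to 0.883 and 0.402 to 0.881. The gap was wider among the other chromosome 19 promoters, with medians of 0.404 for the 767 without a peak and 0.690 for the 74 with a peak in all 4.

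**Figure D5:**
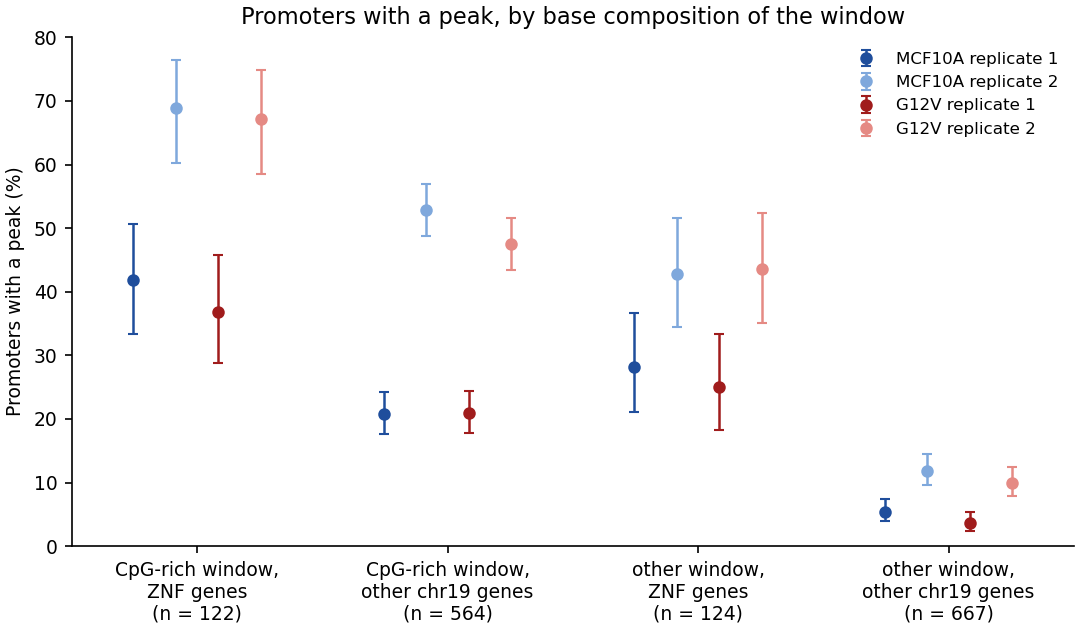
Percentage of promoters with a peak (vertical axis) for CpG-rich and other windows of ZNF genes and of other chromosome 19 genes, with 1 point per library and bars for 95% Wilson intervals. ZNF genes lie above other genes in both classes, and the windows that are not CpG-rich separate most, at 25% to 43.5% against 3.6% to 11.8%.

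The 45 ZNF promoters with another protein-coding TSS within 1000 bp had the higher shares (44.4%, 71.1%, 44.4% and 77.8% in MCF10A replicates 1 and 2 and G12V replicates 1 and 2) than the 201 without (32.8%, 52.2%, 27.9% and 50.2%). Other chromosome 19 promoters without such a neighbour had 8.89%, 22.3%, 8.36% and 19.1%, and the 286 with one had 24.13%, 58.04%, 22.03% and 53.85%. In windows where at least 90% of 51-base words were unique, 35.6%, 56.9%, 31.5% and 56.0% of 216 ZNF promoters had a peak. In the 30 less unique windows 30.0%, 46.7%, 26.7% and 50% had one.

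Motifs were counted as exact matches on either strand in the 250 bases before the TSS, and a match is a description, not evidence of binding. The CCAAT box (CCAAT, bound by NF-Y) stood in 49.6% of ZNF promoters, against 34.6% of other chromosome 19 promoters and 33.1% of all promoters. The ETS core CCGGAAG stood in 23.6%, against 11.3% and 8.94%. The GC box GGGCGG (SP1) stood in 56.5%, 55.6% and 48.8% of the same sets. The E-box CACGTG was rarer in ZNF promoters, at 3.25% against 8.29% and 7.17%, and TATAAA stood in 6.50%, 6.01% and 10.1%. For the NRF1 motif GCATGCGC the shares were 3.66%, 4.31% and 3.02%, for the cAMP response element TGACGTCA 1.63%, 2.68% and 1.89%, for the YY1 motif AAGATGG 2.85%, 3.25% and 3.43%, and for the Kaiso motif CTCGCGAG 0.407%, 0.487% and 0.995%.

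Within the ZNF genes, the GC box stood in 70.9% of the 55 promoters with a peak in all 4 libraries and in 51.7% of the 89 without one. The CCAAT box stood in 54.5% and 47.2%, and the ETS core in 25.5% and 20.2%. The sequences shown above illustrate the overlap between the patterns. ZNF91 carried a GC box, a CCAAT box and an ETS core, and ZNF93 a GC box and 2 CCAAT boxes. ZNF677, with no peak, carried 5 GC boxes, as many as ZNF525, and ZNF582 carried an ETS core and a YY1 motif.

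Proteins were translated from the longest open reading frame of the annotated transcripts. All 246 ZNF genes held at least 1 C2H2 finger pattern, with a median of 12 and a maximum of 36 in ZNF208, which stands first in the block without peaks. A KRAB-like sequence pattern was found in 163. The pattern is strict and missed ZNF224 and ZNF350, which are known to carry a KRAB box. Of members with the pattern, 36.8%, 56.4%, 32.5% and 56.4% had a promoter peak in MCF10A replicates 1 and 2 and G12V replicates 1 and 2, and of the 83 without it 31.3%, 54.2%, 27.7% and 53.0%. The share without any peak was 36.2% and 36.1%.

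Of 18 genes for cofactors of KRAB zinc finger proteins, 4, 10, 7 and 11 had a promoter peak in MCF10A replicates 1 and 2 and G12V replicates 1 and 2, and 0 were gained or lost. As shares these were 22.2%, 55.6%, 38.9% and 61.1%, against 20.4%, 41.1%, 22.2% and 43.8% of all protein-coding promoters. CBX3 (HP1 gamma), HDAC1 (a histone deacetylase), ATF7IP (a SETDB1 partner) and SMARCAD1 (a chromatin remodeller) had one in all 4. TRIM28, the corepressor itself, had percentiles of 91.2 in MCF10A replicate 2 and 79.9 and 77.3 in G12V replicates 1 and 2, and no peak in MCF10A replicate 1. SETDB1 had a peak only in G12V replicate 2 (62.8), and HDAC2, CHD3, CHD4, DNMT1, UHRF1 and MORC2 had none in any library. Of the 22 chromosome 19 genes with other zinc finger symbols, 18 had no promoter peak in any library, and ZFP14 and ZSCAN22 had one in all 4. The shares without any peak were 62.3% among the other promoters of chromosome 19 and 50.3% among all promoters. The 22 genes had a peak at 9.09%, 18.2%, 13.6% and 13.6%, below the ZNF genes in every library. The other promoters of chromosome 19, which include these 22, had 12.4%, 30.6%, 11.5% and 27.1%. In G12V replicate 1 the Wilson intervals of the 22 and of the ZNF genes overlapped (4.75 to 33.3 against 25.5 to 36.9).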

How the data were processed

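ATAC-seq libraries of MCF10A and G12V cells (2 replicates each, grouped by their labels) were used as peak lists. According to the study's methods, alignment by the authors was with Bowtie 0.12.9 and retained uniquely placed reads only. Read starts were shifted to mid-transposition before peak calling by MACS 1.4.2 (tag size 51, no model, shift size 75, local window 25000 bp, p threshold 0.0001). Unique placement removes reads from repeated sequence, which matters for duplicated genes. The deposited lists give 1 peak set per library with the MACS score (the p-value of the peak as -log10, multiplied by 10), with 40 as the lowest score. Reads per library are unknown. The study pooled replicates for its own calls and used RefSeq starts.

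From these lists, peaks on the 22 autosomes and X were overlapped with promoter windows of GENCODE release 44 genes on GRCh37, the build named in the labels, and 0 peaks passed a chromosome end. Values per library were compared by exact permutation tests, none of which could reach 0.05 here, and genes were not treated as replicates. Shares have 95% Wilson intervals, for counting error only. Uniqueness was counted over 51-base words of the genome. Genes named were every gained or lost member, the 10 strongest with peaks in all 4 libraries, 12 with described roles, the 3 strongest seen in 1 library only and the 5 with the highest CpG ratio among those without peaks. The rule for the ZNF genes uses symbol and position only, but that rule and the gene lists were chosen with earlier results of these data known. Of the endothelial markers, PECAM1 was not matched. Computations used Python 3.11.15, numpy 2.4.6, pandas 2.3.3, scipy 1.17.1 and numba 0.67.0, with matplotlib 3.10.9 for figures, and were tested on simulated data.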

Additional observations from a re-analysis of the deposited data

How the results depend on the processing

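The higher share of ZNF promoters than of other chromosome 19 promoters kept its direction under every alternative run, from 11.8 points against promoters of other autosomes and X to 28.3 points with any annotated start, and from 22.3 to 25.3 points when 1 library was left out. The median percentile difference ranged from 18.8 to 22.3 without 1 library was 13.2 with equal lists and 5.43 with the better-scoring 50% of each list, where percentiles can span only the upper part of the scale, and was -0.962 against other autosomes and X. The difference between the arms was -0.776 points with equal lists, -1.01 points in CpG-rich windows, 9.27 points with any annotated start and 2.15 to 4.32 points without 1 library. The difference between G12V and MCF10A ranged from -14.4 to 9.96 points without 1 library, turning positive without MCF10A replicate 2 (8.13) and without G12V replicate 1 (9.96), and the same difference net of other chromosome 19 promoters ranged from -4.44 to 4.35 (1.23 and 4.35 without those libraries). The latter was -6.06 points with equal lists and -4.82 points when set against other autosomes and X. The cause was not tested.

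Counts of patterns varied with the lists and windows used. With the better-scoring 50% of each list, 29 ZNF promoters had peaks in all 4 libraries, 4 were gained and 4 lost, 1.63% each, against 0.791% and 0.323% of all promoters. With equal lists 3 were gained (1.22%, against 1.12% of all promoters) and 11 were lost (4.47%, against 1.3%). With any annotated start 1 was gained (0.407%, against 0.916% of all promoters). With no other TSS within 1000 bp 0 were gained and 1 lost. CpG-rich windows alone held 33 in all 4 libraries, 1 gained, 1 lost and 28 without a peak. Shares of all promoters under these restrictions are not given either, so the counts are not particular to ZNF promoters on this showing. Without 1 library, 4 to 15 were gained (4 without MCF10A replicate 1, 15 without MCF10A replicate 2, 12 without G12V replicate 1, 6 without G12V replicate 2) and 2 to 27 lost (16 without MCF10A replicate 1, 27 without G12V replicate 2). These counts use fewer libraries, so each promoter has fewer conditions to meet. Without shares of all promoters under the same rule, they cannot be read as particular to ZNF promoters. A gap of 500 kb gave 8 clusters with 222 members in place of 7 with 225.

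The replicate numbers are shared between the cell types only as numbers, and deviations of same-numbered libraries correlated at 0.298 over all promoters and 0.286 over ZNF promoters. With the replicate number as a block, the difference between G12V and MCF10A was -2.24 points (exact sign-flip permutation over 2 pairs, p = 0.5, the smallest it allows), from -4.07 points in pair 1 and -0.407 in pair 2. Net of other chromosome 19 promoters it was -0.0424 points (same exact permutation, p = 1). Within pair 1 alone 19 ZNF promoters were gained and 29 lost, and within pair 2 alone 15 were gained and 16 lost. Shares of all promoters within single pairs are not given, so these counts cannot be read as particular to ZNF promoters.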
